A study of Mus musculus with 2 samples.

Results

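To follow the genes that lie around the locus of the lncRNA AK156230, the signals of 10 protein-coding genes of mouse chromosome 5 were read in mouse embryonic fibroblasts (MEFs) in which AK156230 was knocked down. The study names Adam22 and Sri, which encodes sorcin, as neighbours of the lncRNA. The 10 genes are all the protein-coding genes of RefSeq between Steap4 and Crot on GRCm38.p6 (chromosome 5, 7960472 to 8997146, a span of 1037 kb). They were taken by position and not by their signals, though with earlier results of these data known. Every probe set that the platform annotation assigns to 1 of these genes and to no other was used, which gave 18 of the 45037 probe sets of the table and 10 of its 18193 named genes. Sri had 3 probe sets, Adam22, Steap4, Dbf4, Crot, Abcb1a and Abcb1b had 2 each, and Slc25a40, Rundc3b and Abcb4 had 1. The 11 noncoding genes and pseudogenes of the same span had no probe set, and AK156230 has none either, so these arrays do not show how far it was depleted.

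Primary MEFs had been isolated from whole C57BL/6 embryos (E13.5 d) and were young cells at passage 2. A first culture received GapmeR Control, a scrambled oligonucleotide without a target, and the other GapmeR AK156230, an antisense oligonucleotide that leads RNase H to the lncRNA, and the RNA of each was put on 1 array. The sources used here give neither the time from transfection to RNA extraction for the arrays nor the number of embryos behind each culture. With a single array per condition no difference has a replicate check, no test was run, and the number of arrays limits the precision. RNA is measured per culture, and fewer cells of a type and less RNA per cell cannot be told apart. MAS5 signals, which are intensities on a linear scale, had a median of 54.8 on the control array and 50.95 on the AK156230 array. As a scale for the noise, the spread between the brightest pair of probe sets of the same gene was taken over 5112 genes for which both were brighter than the median, and its SD was 0.276 (log2) for a probe set. That SD does not hold the spread between cultures.

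Some lncRNAs act in cis, that is, on genes close to the site where they are transcribed, and others act elsewhere in the cell. A cis effect can show as a change in the mRNA of a neighbour when the lncRNA is lost. Apart from the related transporters Abcb1a, Abcb1b and Abcb4, the genes around AK156230 have unrelated functions. Adam22 and Steap4 encode membrane proteins, Sri a calcium-binding protein, Dbf4 a regulator of DNA replication, Slc25a40 a mitochondrial carrier, Rundc3b a RUN domain protein, Abcb1a, Abcb1b and Abcb4 transporters of the ATP-binding cassette (ABC) superfamily, and Crot a peroxisomal enzyme.

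Of the 10 genes, Abcb1b alone was higher by 2-fold or more with GapmeR AK156230, and none was lower. Represented by its brightest probe set, the other 9 genes had log2 ratios (knockdown over control) between -0.29 (Steap4) and 0.32 (Slc25a40). The background at the same threshold was 1.59% (higher) and 3.85% (lower) of all named genes, and the count of 1 in 10 turns on a single gene. Among the named genes of chromosome 5 the shares were 1.52% higher and 3.12% lower. Counted as probe sets, 1 of 18 was higher and none was lower, beside 1.45% and 3.28% of all probe sets. The median log2 ratio of the 10 genes was 0.23, against -0.074 over all named genes and -0.042 over the genes of chromosome 5. Log2 ratios were above 0 for 8 of the 10 genes (41.2% of all named genes), but for 6 of the 10 when the probe sets of each gene were averaged, since Adam22 (-0.18) and Dbf4 (-0.027) were then below 0. Most of these ratios are about as small as the difference between probe sets of a single gene. That difference was taken from probe sets brighter than the median, so it need not hold for dim ones such as those of Rundc3b and Abcb1a.

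**Figure D1:**
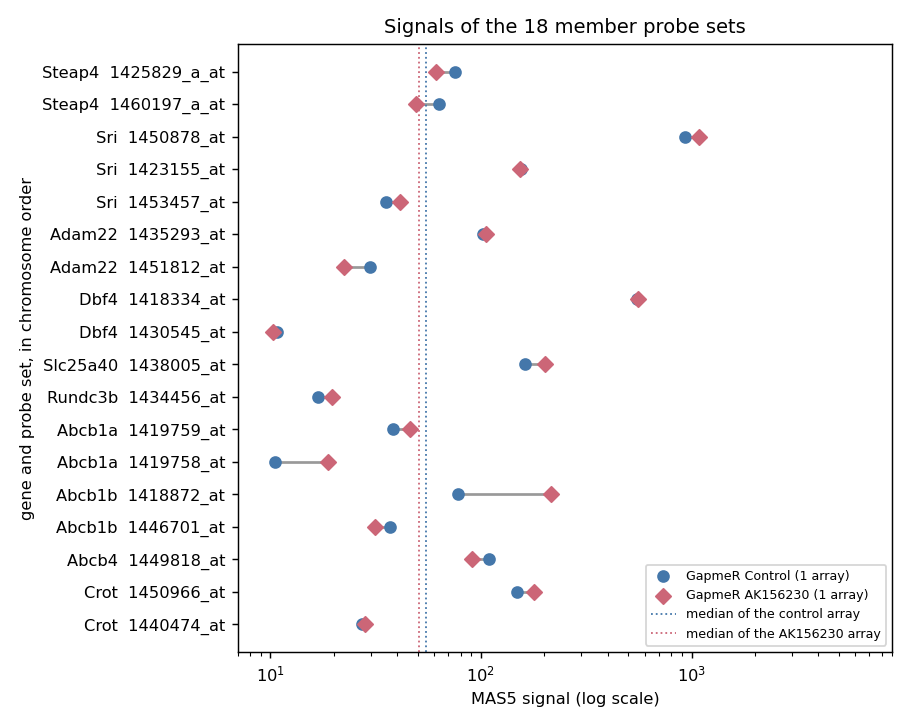
MAS5 signal (log axis) of each of the 18 probe sets on the GapmeR Control array (circles) and the GapmeR AK156230 array (diamonds), with a line joining the 2 arrays and dotted lines at each array's median. The widest gap is that of the Abcb1b probe set 1418872_at, from 77.58 to 215.36, followed by the dim Abcb1a probe set 1419758_at, from 10.5 to 18.72.

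Adam22 and Sri, the genes that the study names beside the lncRNA, differed little between the arrays. Adam22 encodes a member of the ADAM family without protease activity, which serves at synapses as a receptor of the secreted protein LGI1. The gene lies on the minus strand from 8072347 to 8368312. At probe set 1435293_at the signal was 102.42 on the control array and 106.13 after knockdown, a log2 ratio of 0.051. A second, dimmer probe set, 1451812_at, had 29.81 and 22.32, a log2 ratio of -0.42. The 2 probe sets of Adam22 thus went opposite ways, and the dimmer one was under the median of either array. Adam22 spans 296 kb, and 25.4% of the 778 named genes longer than 160 kb and not dimmer than the median were lower by at least 2-fold. Adam22 was not among those, and Abcb1a, the other gene of the span over 160 kb, was dimmer than the median.

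Sri lies 3.03 kb from Adam22, on the plus strand from 8046078 to 8069314. Sorcin is a calcium-binding protein of the penta-EF-hand family that modulates the ryanodine receptor. Its brightest probe set, 1450878_at, was the brightest of all 18, with 927.55 on the control array and 1090.01 on the AK156230 array, 1.18-fold higher. Probe set 1423155_at had 154.48 and 153, and 1453457_at had 35.47 and 41.07, with log2 ratios of -0.014 and 0.21. All 3 probe sets of Sri were thus within 0.25 of each other on the log2 scale, and none was near 2-fold. The 250 bases before its RefSeq start site (chr5:8045828-8046077, plus strand) are shown because Sri is the measured gene nearest to Adam22, and capitals mark the only match to any of the 5 motifs searched.
Sri: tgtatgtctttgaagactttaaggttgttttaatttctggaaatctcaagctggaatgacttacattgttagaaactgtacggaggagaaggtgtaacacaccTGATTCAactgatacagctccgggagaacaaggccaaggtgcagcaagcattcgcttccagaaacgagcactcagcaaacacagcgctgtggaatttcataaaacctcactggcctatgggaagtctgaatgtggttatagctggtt
The match is to TGANTCA, a loose form of the AP-1 site with any base in the middle, so a match need not be an AP-1 site. Such a match is held by 6.75% of 32851 RefSeq promoter windows of the same length, on either strand.

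Steap4, on the far side of Sri from Adam22, was slightly lower in both of its probe sets. It encodes a metalloreductase of iron and copper that is known from adipose tissue and inflammation, and lies from 7960472 to 7982213 on the plus strand. The signals were 74.89 (control) and 61.32 (knockdown) at 1425829_a_at, and 63.28 and 49.37 at 1460197_a_at. The log2 ratios of -0.29 and -0.36 had the same sign and size, and both were well within 2-fold.

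Dbf4 and Slc25a40 lie head to head. Their RefSeq intervals (8396969 to 8422725 on the minus strand and 8422730 to 8454839 on the plus strand) are separated by 4 bases, and the start sites of the transcripts in the promoter table are 122 bases apart. Dbf4 is the activating subunit of the CDC7 kinase, which fires replication origins. On the 2 arrays 551.87 (control) and 554.34 (knockdown) were read at 1418334_at, a log2 ratio of 0.0064, and 10.72 and 10.28 at the dim probe set 1430545_at. Slc25a40, a mitochondrial carrier linked to glutathione import, had 161.43 and 201.36 at its single probe set, 1438005_at, 1.25-fold higher. The signal of Dbf4 was level while that of Slc25a40 differed by about as much as probe sets of a single gene do. The 250-base windows before their start sites overlap and are rich in G and C (77.6% and 78%, against a median of 52.4% over all promoter windows). They held 3 and 2 matches to the GC box GGGCGG, which 32.7% of all windows hold.

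Rundc3b and Abcb1a overlap by 56.0 kb on opposite strands, and both were dim. Rundc3b encodes a RUN domain protein and lies on the minus strand from 8490336 to 8623084. Its single probe set, 1434456_at, had 16.85 on the control array and 19.66 after knockdown, which is in the lowest brightness quartile of the array. At such signals no ratio can be read firmly. With 24.3, the 25th percentile of all signals, added to every signal, its log2 ratio went from 0.22 to 0.095.

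The 3 ABC transporter genes lie next to each other on the plus strand, and their readings diverged. Abcb1a (8567091 to 8748575) and Abcb1b (8798147 to 8866314) encode the mouse P-glycoproteins, efflux pumps for many drugs that stand in place of the single human ABCB1. Abcb4 (8893614 to 8959226) encodes a phosphatidylcholine transporter known from bile secretion. Abcb1b was read at 77.58 on the control array and at 215.36 after knockdown by probe set 1418872_at, 2.78-fold higher (log2 ratio 1.47). It was above the median of both arrays. In its brightness quartile 1.75% of the probe sets were higher by 2-fold or more, and 74 of 11259 (0.657%) had a larger log2 ratio. As the largest of the 18 member ratios it was singled out by its size, so this rank does not measure how rare it is. The second probe set of Abcb1b, 1446701_at, had 36.87 and 31.37, a log2 ratio of -0.23 in the opposite direction. It is dimmer than the median on both arrays, and the platform annotation pairs it with an expressed sequence tag and 1418872_at with the RefSeq mRNA. With both averaged the log2 ratio of Abcb1b was 0.62, within 2-fold, so the difference rests on 1 probe set.

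Abcb1a was dim. Its probe set 1419759_at had 38.27 (control) and 46.09 (knockdown), and 1419758_at had 10.5 and 18.72, with log2 ratios of 0.27 and 0.83. Both were higher on the AK156230 array, but the larger ratio belongs to a probe set near the bottom of the range, and it was 0.31 with 24.3 added to every signal. The same addition left Abcb1b at 1.23. Abcb4 had 108.65 and 90.74 at 1449818_at, 1.20-fold lower. Abcb1a and Abcb1b are close paralogs, and signal of one at the probes of the other cannot be told apart here.

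The upstream sequences of the P-glycoprotein genes are shown because Abcb1b was past 2-fold while Abcb1a was not. Each line gives the 250 bases before the RefSeq start site on the plus strand of GRCm38.p6 (chr5:8797897-8798146 for Abcb1b and chr5:8566841-8567090 for Abcb1a), and capitals mark motif matches.
Abcb1b: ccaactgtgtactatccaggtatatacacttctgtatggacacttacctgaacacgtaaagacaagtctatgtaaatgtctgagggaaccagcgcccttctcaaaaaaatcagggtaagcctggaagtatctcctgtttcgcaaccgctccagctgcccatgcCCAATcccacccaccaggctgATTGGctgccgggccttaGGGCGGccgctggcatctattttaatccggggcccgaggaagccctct
Abcb1a: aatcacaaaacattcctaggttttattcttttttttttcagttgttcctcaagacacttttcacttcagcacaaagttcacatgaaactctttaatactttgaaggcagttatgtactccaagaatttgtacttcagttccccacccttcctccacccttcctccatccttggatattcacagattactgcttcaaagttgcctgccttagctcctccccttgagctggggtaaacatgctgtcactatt
The window of Abcb1b held 2 matches to the CCAAT box, CCAAT and its reverse complement ATTGG, and 1 to the GC box, with 9 CpG dinucleotides and 52.8% G and C. CCAAT boxes are in 33.8% of all windows. The window of Abcb1a, which lies inside the interval of Rundc3b, held none of the 5 motifs and no CpG, with 40.4% G and C. A single RefSeq start site was used for each gene, and any others were not looked at. The other motifs searched on both strands were the TATA box TATAAA (12.4% of windows, and 1 match in Steap4) and the E-box CACGTG (6.02%, with no match in the 10 genes). A match is a description of letters and does not show that a factor binds there.

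Crot, the last gene of the span, encodes the peroxisomal carnitine O-octanoyltransferase, which hands medium-chain fatty acids on to mitochondria. It lies on the minus strand from 8966033 to 8997146. The arrays gave 148.39 (control) and 177.76 (knockdown) at 1450966_at, 1.20-fold higher, and 27.3 and 28.07 at 1440474_at. Both log2 ratios, 0.26 and 0.040, were small.

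**Figure D2:**
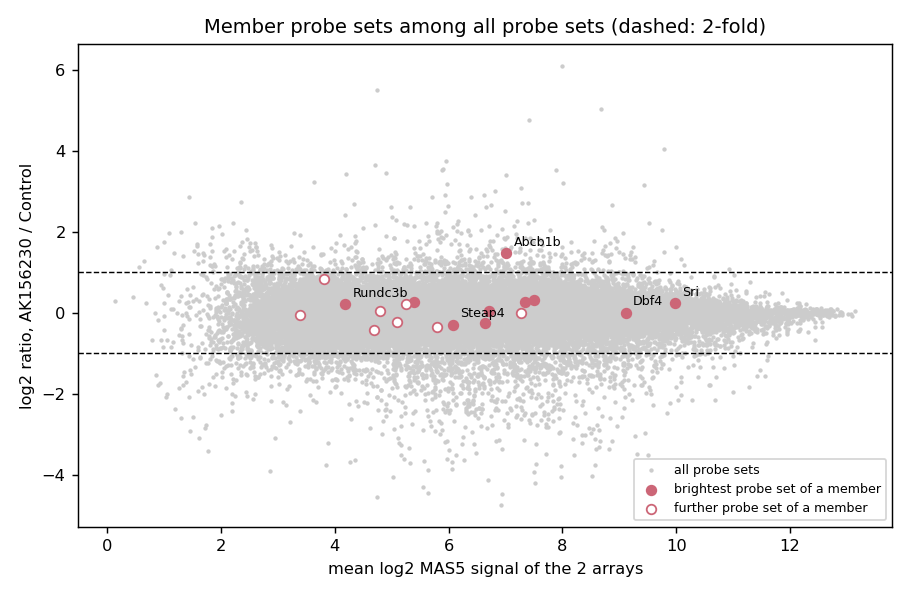
log2 ratio (GapmeR AK156230 over control) against the mean log2 signal for all 45037 probe sets (grey) and the 18 member probe sets (red, filled for the brightest of each gene), with dashed lines at 2-fold. The probe set of Abcb1b at 1.47 is the only member beyond the lines.

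Distances were taken from Adam22, as the position of AK156230 itself was not used, so the distance of each gene from the lncRNA is not given. The gene past 2-fold was not one of those next to Adam22. Abcb1b lies 430 kb from Adam22, and the 4 genes between them, Dbf4, Slc25a40, Rundc3b and Abcb1a, were within 2-fold. Abcb4, which is 27.3 kb beyond Abcb1b, had a log2 ratio of -0.26. The signs of neighbouring genes changed at Steap4 and Sri, at Abcb1b and Abcb4 and at Abcb4 and Crot. Within 3 Mb of Adam22 a further 13 named genes were measured. Of these, 1 was lower by 2-fold or more, beside 3.85% of all named genes, and none was higher, beside 1.59%. The lower gene was Cdk14, a cyclin-dependent kinase gene of 577 kb that lies 2.69 Mb from Adam22, beyond Steap4. It had 343.38 (control) and 99.07 (knockdown) at its brightest probe set. Its dimmer probe sets had log2 ratios of -0.73 and 0.0083, and with all of them averaged Cdk14 was within 2-fold. The glutamate receptor gene Grm3, 1.12 Mb away, was next in size, 1.92-fold lower, but was dim on both arrays (13.58 and 7.09). The claudin gene Cldn12, 2.56 Mb away, had 617.2 and 1070.17, a 1.73-fold difference, and its second probe set 182.28 and 348.09. The nearest measured genes on either side of the 10 were Tex47 (47.21 and 37.44) and Tmem243 (95.09 and 89.29), which had log2 ratios of -0.33 and -0.091. The median of the 13 genes was -0.15.

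**Figure D3:**
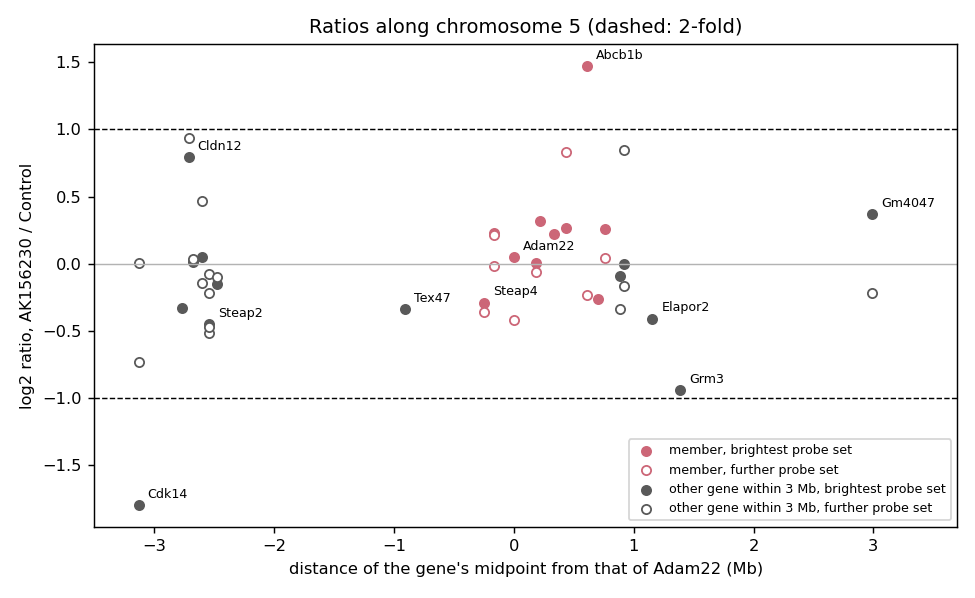
log2 ratio of each probe set against the distance of its gene's midpoint from that of Adam22 in Mb, for the 10 members (red) and 13 other genes within 3 Mb (dark), filled for the brightest probe set of a gene. Abcb1b at 1.47 and Cdk14 at -1.79 are the only genes whose brightest probe set is beyond 2-fold.

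The members were then set beside genes of the same family or pathway. Adam22 had a log2 ratio of 0.051 at its brightest probe set, but -0.18 with both of its probe sets averaged. Of 10 other ADAM genes, 9 were below 0 and 1 above, beside 41.2% of all named genes above 0, and their median was -0.59. Adam23, a close paralog of Adam22 that also lacks protease activity and binds LGI proteins, had 268.73 (control) and 64.88 (knockdown) and so was 4.14-fold lower, with a mean log2 ratio of -1.05 over its 3 probe sets. Adam11, the other close paralog, was at -0.19. Adam12, a protease of mesenchymal cells, was 2.73-fold lower (403.63 and 147.9). Adam23 and Adam12 were the 2 of the 10 lower by 2-fold or more, beside 3.85% of all named genes. Sri resembled the other penta-EF-hand genes, of which none was past 2-fold (median 0.11), among them Pdcd6 at 0.081 and Gca at 0.14. Steap4 lay within the range of Steap2 (-0.45), Steap1 (-0.15) and Steap3 (0.10).

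Dbf4 stood level, as some of the genes with which it acts did, while most of these were above 0. Its partner Cdc7 was 1.80-fold higher (72.52 and 130.56), and its second probe set had a log2 ratio of 0.28. Of 22 genes of origin licensing and firing, 18 had log2 ratios above 0 (41.2% of all named genes), with a median of 0.41. Mcm2 (-0.015), Mcm10 (-0.017), Gins1 (0.058) and Gins2 (0.068) were near 0, as Dbf4 was. Cdc6, which loads the MCM helicase, was the only one of the 22 past 2-fold, at 2.27-fold higher (62.75 and 142.66). Among all named genes 1.59% were higher by 2-fold or more. With 24.3 added to every signal Cdc6 was at 0.94. Slc25a40 lay within the range of the 32 other mitochondrial carriers measured, from -0.63 to 0.63 with a median of -0.047. Its closest relative, Slc25a39, was at -0.12 (2437.7 and 2241.83). Rundc3a, the paralog of Rundc3b, was level (232.59 and 229.22).

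Abcb1b was the only subfamily B transporter past 2-fold, beside 1.59% of all named genes higher by 2-fold or more. The other 7 measured genes of the subfamily outside the span ranged from -0.53 (Abcb6, a porphyrin transporter gene) to 0.86 (Tap1, which carries peptides for antigen presentation), and Abcb11, the bile salt pump, was at -0.18. The 4 probe sets of Tap1 ranged from -1.09 to 0.86. Among 15 genes of subfamilies C and G, which hold further drug efflux pumps, 13 were below 0 and 2 above, beside 41.2% of all named genes above 0. Only 9 of the 15 reached the median signal on the brighter array. Abcc4 was the one past 2-fold, 3.22-fold lower (144.43 and 44.82), beside 3.85% of all named genes lower by 2-fold or more. Abcc1 had 643.96 and 350.75, and Abcg2 581.42 and 512.98. Crot was at 0.26, and the 4 other carnitine acyltransferases measured were at 0.63 (Cpt1c), 0.28 (Crat), -0.071 (Cpt1a) and -0.36 (Cpt2).

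**Figure D4:**
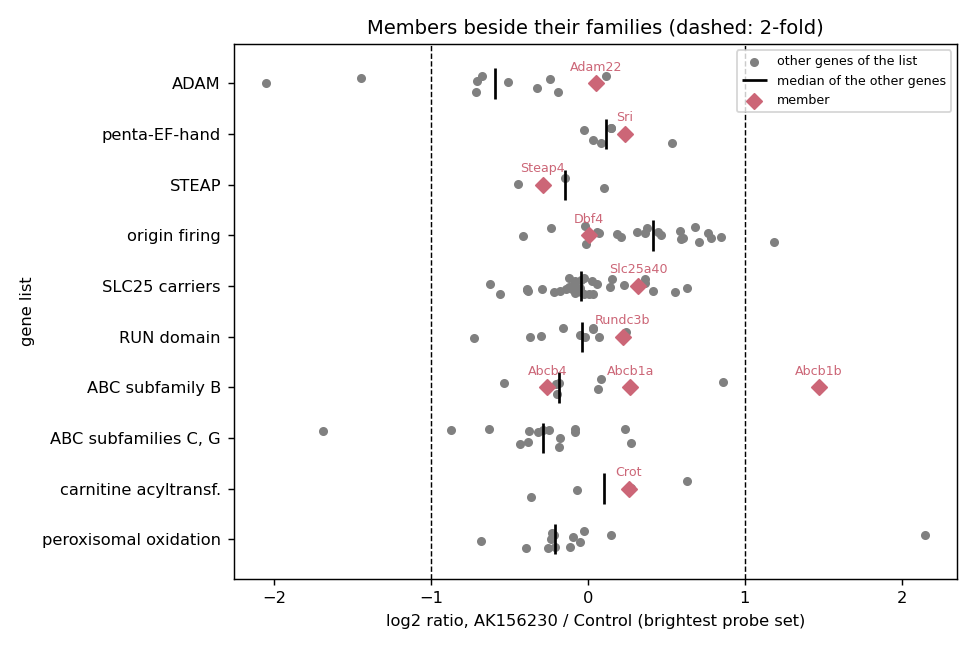
log2 ratio of the brightest probe set of each gene (grey points) in 10 family or pathway lists, with a black bar at the median of each list and red diamonds for the members, and dashed lines at 2-fold. Abcb1b at 1.47 lies beyond the other genes of its subfamily. Adam22 at 0.051 lies to the right of the ADAM median of -0.59, and the mean of its probe sets was -0.18.

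Both cultures carried the transcripts of fibroblasts. All 12 fibroblast markers were above the median signal on the brighter array, from 486.72 to 7019.42 with GapmeR Control. After knockdown 5 of them were at least 2-fold lower (Col3a1, Pdgfra, Pdgfrb, Lum and Prrx1). The 12 markers summed to 36843 and 24169. Among all named genes 3.85% were lower and 1.59% higher by 2-fold or more. Since P-glycoprotein is also known from endothelium and leukocytes, their markers are given beside Abcb1b. The 6 endothelial markers summed to 209.5 and 255.2, with 1 of 6 higher by 2-fold or more (Kdr, 44.54 and 90.91), while Pecam1 (33.63 and 27.76) and Cdh5 (25.41 and 26.89) were below the median on both arrays. The 6 leukocyte markers summed to 465.4 and 561.0, and Cd68 alone was past 2-fold (108.03 and 274.59). Of the 6, 4 were lower, among them Ptprc (30.89 and 25.85) and Csf1r (174.17 and 141.55). The higher sums of the endothelial and leukocyte lists rest on Kdr and Cd68. The part of endothelial cells and leukocytes in the signal of Abcb1b was not tested.

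**Figure D5:**
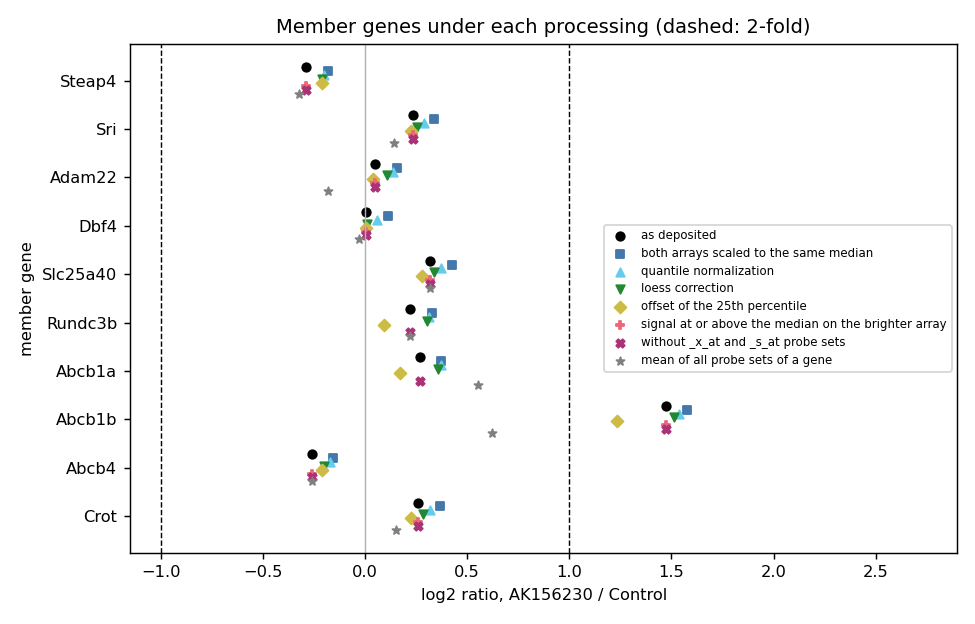
log2 ratio of each member gene under each way of processing the arrays, with black circles for the signals as deposited and dashed lines at 2-fold. Abcb1b lies beyond 2-fold in every setting except the mean of its probe sets (0.62), and no other member reaches 2-fold.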

How the data were processed

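RNA of both cultures was labelled and hybridized to 1 Affymetrix array each, and the intensity deposited by the authors for each probe set is a MAS5 signal on a linear scale, without detection calls. The version of MAS5 and its scaling target were not given in the sources. The study's methods name a porcine array, but the samples are labelled as mouse and the probe set identifiers are listed in the annotation of a mouse platform, which was used.

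Signals were used without further scaling, and the log2 of knockdown over control was computed for each probe set. For the knockdown arrays the study's methods give SAM, and its results give a 2-fold threshold. SAM cannot be run on 1 array per condition, so the threshold was kept as a description. Of the probe sets, 34945 had 1 gene symbol, 932 several and 9160 none. A gene was represented by its probe set of highest mean log2 signal. Gene positions came from RefSeq on GRCm38.p6, and promoter windows (250 bases before the start site, all 10 members matched) from the RefSeq table of the same build. The named genes were all members, neighbours past 2-fold or nearest to the span, and, of the 10 family lists, direct paralogs or partners of members and up to 4 genes past 2-fold. The members and lists were chosen with earlier results of these data known, and the 5 motifs after the ratios had been seen. Grm3, Cldn12 and some family and marker genes were named after their values were seen. Counting and scaling were tested on simulated data. Analyses used Python 3.11.15, numpy 2.4.6, pandas 2.3.3 and statsmodels 0.14.6 (loess span 0.3), and figures matplotlib 3.10.9.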

Additional observations from a re-analysis of the deposited data

How the results depend on the processing

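Results were recomputed with both arrays scaled to the same median, with quantile normalization, with a loess correction on mean signal, with an offset of 24.3, with only probe sets at or above the median on the brighter array, without _x_at and _s_at probe sets, and with a gene's probe sets averaged. Of 68 log2 ratios of single members under these alternatives, 66 were within 0.276 of the value as deposited and 2 were not. These were the means over all probe sets of Abcb1a (0.55) and Abcb1b (0.62). Many of the 66 could not have differed by more. No member had an _x_at or _s_at probe set, and dropping dim probe sets left the brightest of each remaining gene as it was. Scaling to the same median shifts all ratios alike, and averaging changes nothing for genes with 1 probe set. The log2 ratio of Abcb1b was otherwise between 1.23 and 1.58. The number of member genes higher by 2-fold or more was 0 with averaged probe sets and 0 at 3-fold, and that of member probe sets was 2 at 1.5-fold and 0 at 3-fold. Of the 13 other genes within 3 Mb, 1 was higher and 2 were lower at 1.5-fold, none was lower by 2-fold with averaged probe sets, and 0 of the 4 within 1 Mb of Adam22 were past 2-fold. Shares over all probe sets or genes were computed at 2-fold only, so the counts at 1.5-fold and 3-fold have no background beside them. The median of the members ranged from 0.13 to 0.33 and that of the 13 genes from -0.21 to -0.0041. Scaling to the same median moved every ratio by 0.11, and the members' median was then 0.33 beside 0.032 over all named genes. Of the 18 probe sets, 8 were under the array's median signal on the brighter array, where ratios are least firm.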

Other observations

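Of 13 measured genes of peroxisomal fatty acid oxidation, the pathway in which Crot acts, 1 was higher by 2-fold or more with GapmeR AK156230 and none was lower. The shares over all named genes were 1.59% higher and 3.85% lower. Log2 ratios were above 0 for 2 of the 13, beside 41.2% of all named genes, and their median was -0.21, beside -0.074 over all named genes. Catalase (Cat), which breaks down the hydrogen peroxide formed by this pathway, had 907.62 with GapmeR Control and 565.9 with GapmeR AK156230, a log2 ratio of -0.68. Acaa1b, a peroxisomal thiolase gene, was the gene past the threshold, 4.42-fold higher (49.78 and 220.27). Its near-identical paralog Acaa1a had 372.15 and 283.22, a log2 ratio of -0.39. The log2 ratios of the 2 thiolase genes had opposite signs, and signal that their probe sets may share cannot be told apart here.

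Of the other marker lists, 2 of 6 neural markers (Tubb3 and Sox2) and 1 of 5 measured adipocyte markers (Fabp4, 235.41 and 52.17) were lower by 2-fold or more. None of 5 measured hepatocyte markers was past 2-fold, and 1 of 6 epithelial markers was higher. Over all named genes 1.59% were higher and 3.85% lower by 2-fold or more. The lists summed to 644.2 and 655 for neural cells, 531.3 and 348.9 for adipocytes, 322.5 and 265.5 for hepatocytes and 458.0 and 582.5 for epithelium on the control and AK156230 arrays.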
